A study of Mus musculus with 3 samples.

Results

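The genes Flnc, Myom2, Xirp1, Xirp2, Ankrd1, Ankrd2, Tcap, Ldb3 and Des encode proteins of the Z-disc, the M-band and the intermediate filaments of muscle, or proteins of these structures that respond to mechanical load. They were taken by gene symbol from the deposited expression tables, in which all 9 were found among 42258 genes. The tables come from RNA sequencing of whole gastrocnemius and plantaris, the fast-fibre-rich calf muscles, of male mice. The aged EPA group (C57BL/6J, 87 weeks old) had received food with 1 wt% eicosapentaenoic acid, an omega-3 fatty acid abbreviated EPA, for 12 weeks from an age of 75 weeks. The aged control group (C57BL/6J, 87 weeks old) had received food deprived of EPA over the same 12 weeks. The young group was 24 weeks old, its strain is labelled C57BL/7J, and its diet is not given. RNA of 6 aged EPA, 6 aged control and 3 young mice was pooled within each group, so each group is 1 library without a replicate. Values are therefore differences between 3 libraries: they carry no error between mice or between library preparations, no test was possible, and in the comparisons with young muscle age cannot be told apart from diet, cohort or the strain label.

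In striated muscle, actin filaments of neighbouring sarcomeres are cross-linked at the Z-disc and myosin filaments at the M-band. Filamin C and the Xin proteins bind actin at the Z-disc, at attachment sites of the membrane and in damaged regions of myofibrils. Desmin filaments tie Z-discs to each other and to the membrane, telethonin caps the end of titin, and the ankyrin repeat proteins Ankrd1 and Ankrd2 bind titin and can move to the nucleus when muscle is stretched. Filamin C, desmin and the Xin proteins are known to increase where fibres are loaded or damaged.

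The libraries held between 55969822 and 57622886 counts, recovered from the deposited CPM, that is counts per 1000000 counts of a library. The labelled tissue was borne out by the skeletal actin gene Acta1, with 35589 CPM in aged EPA, 36148 CPM in aged control and 31001 CPM in young muscle, and all 10 markers of muscle fibres were above 0 in each library. Of the 6 cardiac markers, Myl7 was listed at 0 in all 3 libraries, while Myl4 and Myh6 were above 0 in each. The 6 summed to 11.4 CPM in aged EPA, 16.1 CPM in aged control and 11.6 CPM in young muscle. A change is given as the log2 ratio of CPM + 1. The comparison took in the 12966 genes whose mean over the libraries reached 1 CPM, all 9 studied here among them. A gene was counted as different at a fold of at least 1.5. A 95% interval beside a log2 count ratio is an exact Clopper-Pearson interval of the recovered counts and covers counting error only. It belongs to the count ratio. Folds are of CPM + 1, and some lie outside the interval beside them, since the divisors of the deposited CPM differed from gene to gene.

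The upstream sequences of 4 of the genes are shown because they hold an MCAT element, a MEF2 site or a CArG box, elements known from muscle promoters. Flnc, Xirp2 and Ankrd1 were also those with their highest level in aged control muscle, and Ldb3 varied least among the libraries. A link between these elements and the levels was not tested. RefSeq starts (GRCm38.p6) were listed for 6 of the 9 genes, namely Flnc, Xirp2, Ankrd1, Ankrd2, Ldb3 and Des, and Myom2, Xirp1 and Tcap were not matched. Each line gives the 250 bases before the RefSeq start, on the strand of the gene. Flnc and Ldb3 had 2 listed starts each, and the start nearest to that of the GENCODE gene was used. For Ankrd1 the 250 bases lie inside the GENCODE gene, which spans 36111961 to 36120099. Capitals mark the MCAT element CATTCC, bound by TEAD factors, in Flnc and Ankrd1, the MEF2 site in Xirp2 and the CArG box, bound by serum response factor, in Ldb3.
Flnc, chr6:29433006-29433255, plus strand: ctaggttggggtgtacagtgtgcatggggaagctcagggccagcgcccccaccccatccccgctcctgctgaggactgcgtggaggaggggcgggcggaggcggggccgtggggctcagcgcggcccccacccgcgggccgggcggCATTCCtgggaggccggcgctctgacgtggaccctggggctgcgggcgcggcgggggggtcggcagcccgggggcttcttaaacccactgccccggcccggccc
Xirp2, chr2:67445752-67446001, plus strand: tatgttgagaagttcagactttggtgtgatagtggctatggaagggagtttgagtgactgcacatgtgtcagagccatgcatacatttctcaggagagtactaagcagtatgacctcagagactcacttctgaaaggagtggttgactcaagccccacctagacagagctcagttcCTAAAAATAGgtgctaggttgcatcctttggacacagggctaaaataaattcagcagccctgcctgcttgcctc
Ankrd1, chr19:36119845-36120094, minus strand: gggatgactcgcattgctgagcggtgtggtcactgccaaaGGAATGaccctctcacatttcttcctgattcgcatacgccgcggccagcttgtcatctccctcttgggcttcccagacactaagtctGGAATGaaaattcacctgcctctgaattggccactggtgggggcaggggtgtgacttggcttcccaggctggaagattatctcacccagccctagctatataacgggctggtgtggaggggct
Ldb3, chr14:34588682-34588931, minus strand: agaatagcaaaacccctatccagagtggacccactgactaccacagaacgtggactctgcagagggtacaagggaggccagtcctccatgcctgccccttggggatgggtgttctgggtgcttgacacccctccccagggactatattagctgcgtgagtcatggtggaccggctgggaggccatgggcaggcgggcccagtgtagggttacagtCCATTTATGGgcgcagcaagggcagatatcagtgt

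Motifs were searched on both strands in the 300 bases from 250 before to 50 after a start. In Ankrd1 the MCAT element stood on the opposite strand, as GGAATG, at positions -210 to -205 and -123 to -118 counted from the start, and in Flnc CATTCC stood at -104 to -99. The MEF2 site of Xirp2 lay at -74 to -65 and the CArG box of Ldb3 at -35 to -26. An E-box, CANNTG, the element bound by myogenic factors, was present in Xirp2, where 2 copies overlap, in Ankrd1, in Ankrd2 with 3 copies and in Des with 2. Over all 32851 promoters of the same length, 72.3% held an E-box, 14.7% an MCAT element, 3.19% a MEF2 site and 1.63% a CArG box. A match describes these letters and does not show a bound site.

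The 9 genes together made up 1.20% of the deposited CPM in aged EPA, 1.13% in aged control and 0.954% in young muscle. Most of that sum was Des, Ldb3, Tcap, Xirp2 and Myom2. Levels of different genes are compared per length, as CPM per kilobase of the longest annotated transcript. On that scale Tcap was highest, with 1965 in aged EPA, 1692 in aged control and 1541 in young muscle, followed by Des with 1364, 1215 and 1051 in the same libraries. Ldb3 was the next, at 410 in aged EPA, 394 in aged control and 359.7 CPM per kilobase in young muscle, although its annotated transcripts range from 1499 to 5119 bases and its place depends on which is used. Myom2 had 219 CPM per kilobase in aged EPA, 215 in aged control and 149.6 in young muscle. Ankrd2 had 128, 149.7 and 167 CPM per kilobase in these libraries, so that it ranked below Myom2 in both aged libraries and above it in the young library. Xirp2 had 128 CPM per kilobase in aged EPA, 151 in aged control and 111 in young muscle. Flnc and Xirp1 lay lower, between 44.7 and 81.7, and Ankrd1 was lowest with 5.28 in aged EPA, 7.63 in aged control and 5.33 CPM per kilobase in young muscle. Without replicates it cannot be said which neighbours in this order differ beyond the spread between samples.

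**Figure D1:**
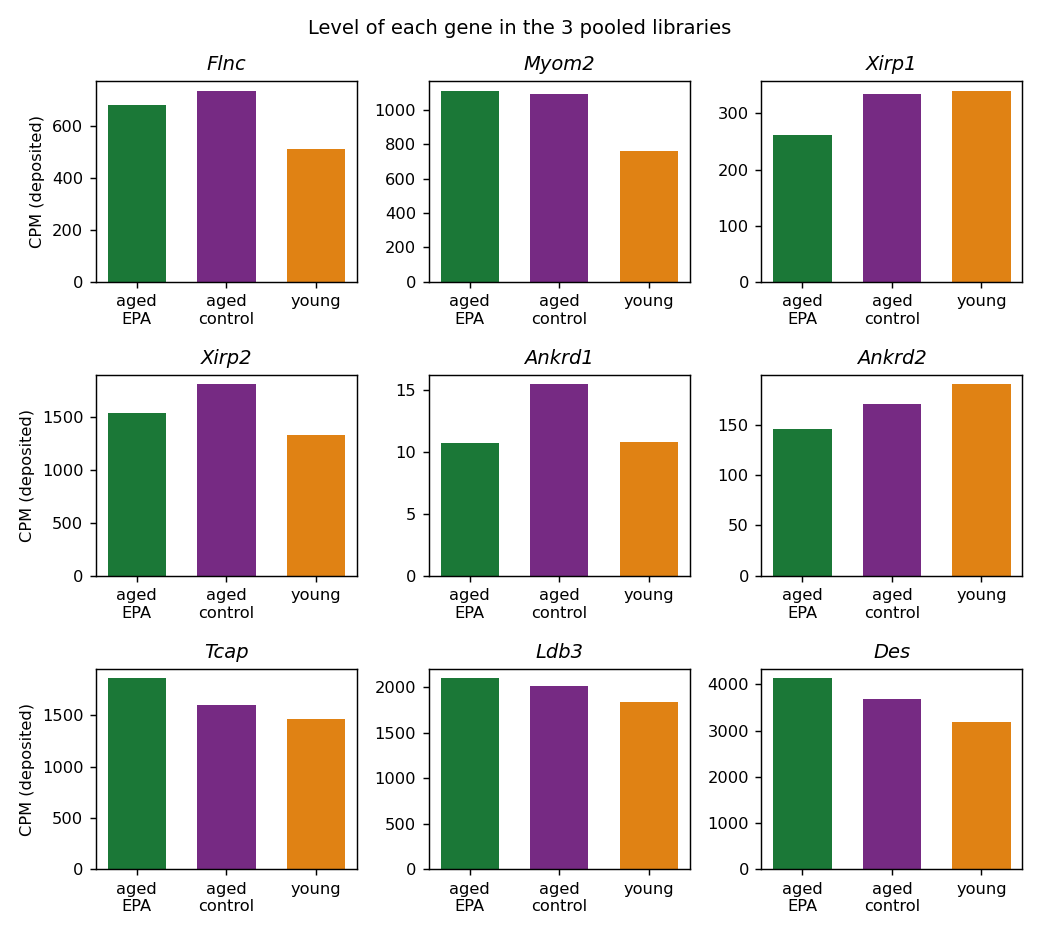
Bars show deposited CPM (vertical axes, each from 0) of the 9 genes in the aged EPA, aged control and young libraries, 1 pooled library each, with no error bars because there are no replicates. Des, Ldb3, Tcap and Myom2 were highest in aged EPA, Flnc, Xirp2 and Ankrd1 in aged control, and Xirp1 and Ankrd2 in young muscle.

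No member reached 1.5-fold in any comparison on deposited CPM, although Myom2 passed it in aged EPA against young muscle with median-of-ratios or trimmed-mean scaling (log2 changes of 0.59 and 0.60). Of all 12966 genes, 3.60% did so between aged EPA and aged control, 5.24% between aged control and young and 5.36% between aged EPA and young muscle. At a lower bar, a level at least 25% higher or 20% lower, 4 of the 9 passed as higher in aged control than in young muscle, where 9.13% of all genes did, and 0 as lower, where 10.4% did. The 4 were Flnc, Myom2, Xirp2 and Ankrd1. The set against aged control gave 2 genes lower in aged EPA, Xirp1 and Ankrd1, beside 7.38% of all genes, and 0 higher, beside 5.38%. Xirp1 fell short of this bar on recovered counts over the library total, at a log2 change of -0.29. Against young muscle, aged EPA had 4 genes higher, Flnc, Myom2, Tcap and Des, beside 7.43% of all genes, and 2 lower, Xirp1 and Ankrd2, beside 11.7%. The aged control library is shared by the first 2 comparisons, and a value that is high or low in it moves both in opposite directions.

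The filament cross-linkers of the Z-disc and M-band differed most between aged and young muscle. Flnc (ENSMUSG00000068699, chromosome 6, 29433256 to 29461883 on GRCm38), which encodes filamin C, had 684 CPM in aged EPA, 738 CPM in aged control and 514 CPM in young muscle. Both aged libraries were above the young one, and aged control was the highest. The fold was 1.44 in aged control against young (log2 count ratio 0.55, interval 0.52 to 0.57), 1.33 in aged EPA against young and 0.926 between aged EPA and aged control (log2 count ratio -0.10, interval -0.12 to -0.08). Flna, whose filamin is found in many cell types, was lower in level and differed less between the aged libraries and the young one. It had 96.0 CPM in aged EPA, 120.0 CPM in aged control and 101.7 CPM in young muscle. The CPM ratio of Flnc over Flna was 7.12 in aged EPA, 6.15 in aged control and 5.05 in young muscle.

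Myom2 (ENSMUSG00000031461, chromosome 8, 15057653 to 15133541), which encodes M-protein, an M-band cross-linker of fast fibres, had 1113 CPM in aged EPA, 1092 CPM in aged control and 759 CPM in young muscle. The aged libraries were close to each other and both above young. Myom2 had the widest range of the 9 genes, with folds of 1.47 in aged EPA against young, 1.44 in aged control against young (log2 count ratio 0.55, interval 0.53 to 0.56) and 1.02 between aged EPA and aged control (log2 count ratio 0.04, interval 0.02 to 0.05). Its paralogue Myom1, myomesin, had 1391 CPM in aged EPA, 1432 CPM in aged control and 1138 CPM in young muscle. Myom3, the paralogue of intermediate fibres, had 52.4, 64.1 and 47.9 CPM in these libraries, so that all 3 were lowest in young muscle. Among 2208 other genes that averaged 50 CPM or more, those with the profile closest to Myom2 were Stau2, Ighm, Mybpc2, Kctd15 and Rasd2, at distances between 0.02 and 0.05 on the log2 scale. The distance is Euclidean over only 3 libraries, which many genes can match. Mybpc2, fast myosin-binding protein C, had 5588 CPM in aged EPA, 5599 CPM in aged control and 3767 CPM in young muscle.

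The Xin repeat genes, whose products bind actin and filamin C, did not share a profile. Xirp2 (ENSMUSG00000027022, chromosome 2, 67446002 to 67526614) had 1536 CPM in aged EPA, 1807 CPM in aged control and 1331 CPM in young muscle. Aged control was highest and aged EPA lay between it and young muscle. An antisense gene that overlaps exons of Xirp2, Gm13601, was listed at 0 in aged EPA and young muscle and at 0.0174 CPM in aged control. The fold was 0.850 in aged EPA against aged control (log2 count ratio -0.18, interval -0.19 to -0.17) and 1.36 in aged control against young (log2 count ratio 0.40, interval 0.39 to 0.41). Xirp1 (ENSMUSG00000079243, chromosome 9, 120013755 to 120023598) had 261 CPM in aged EPA, 334 CPM in aged control and 341 CPM in young muscle. Here aged EPA was the library apart, with a fold of 0.783 against aged control (log2 count ratio -0.29, interval -0.32 to -0.26) and 0.767 against young, while aged control stood at 0.980 of young. The CPM ratio of Xirp1 over Xirp2 was 0.170 in aged EPA, 0.185 in aged control and 0.256 in young muscle.

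The titin-binding ankyrin repeat genes also went separate ways. Ankrd1 (ENSMUSG00000024803, chromosome 19, 36111961 to 36120099), a gene best known from heart and from stretched or denervated muscle, had 10.7 CPM in aged EPA, 15.4 CPM in aged control and 10.8 CPM in young muscle. Aged control stood above both others, which did not differ beyond counting error (log2 count ratio of aged EPA over young 0.00, interval -0.16 to 0.16). Its fold was 0.710 in aged EPA against aged control (log2 count ratio -0.48, interval -0.63 to -0.33) and 1.40 in aged control against young (log2 count ratio 0.48, interval 0.33 to 0.63). With between 603 and 864 counts it had the widest counting intervals of the 9 genes, and on counts the 1.5-fold bar lay inside both. The cardiac marker Myh6 was also highest in aged control, at 3.36 CPM in aged EPA, 6.83 CPM in aged control and 3.57 CPM in young muscle, as was the embryonic myosin Myh3, a marker of regenerating fibres, at 4.06, 7.76 and 2.22 CPM. Of the 6 markers of satellite cells and regenerating fibres, 2 were higher in aged control against young muscle, and their summed level was 155 CPM in aged EPA, 163 CPM in aged control and 167 CPM in young muscle. The 6 cardiac markers summed to 11.4 CPM in aged EPA, 16.1 CPM in aged control and 11.6 CPM in young muscle, with 1, 2 and 3 of them at 0 in these libraries. The part of either marker list in the level of Ankrd1 was not tested.

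Ankrd2 (ENSMUSG00000025172, chromosome 19, 42036000 to 42045110), which is enriched in slow fibres and responds to stretch, had 146 CPM in aged EPA, 170.3 CPM in aged control and 189.9 CPM in young muscle. It was lowest in aged EPA and highest in young muscle, with folds of 0.856 in aged EPA against aged control (log2 count ratio -0.16, interval -0.20 to -0.12), 0.898 in aged control against young (log2 count ratio -0.19, interval -0.23 to -0.15) and 0.768 in aged EPA against young. A list of 12 slow fibre genes held contractile genes, calcium handling genes and the myoglobin gene Mb. All 12 were higher in aged control than in young muscle (median log2 change 0.60), where 47.5% of all genes were higher. Among them was the slow myosin Myh7, with 126 CPM in aged EPA, 178 CPM in aged control and 66.4 CPM in young muscle. Tnni1, the slow troponin I gene, had 29.7 CPM in aged EPA, 39.0 CPM in aged control and 18.5 CPM in young muscle, and Sln, which encodes the calcium pump regulator sarcolipin, had 2.14, 3.30 and 1.253 CPM. Ankrd2 was thus lower in aged control, against young muscle, in the same libraries in which the slow fibre genes were higher. Short transcripts tended lower there, as given below, and with that trend subtracted the log2 change of Ankrd2 was -0.05 in place of -0.16. Csrp3, the muscle LIM protein of the Z-disc and likewise a gene of slow fibres and of stretch, had 60.6 CPM in aged EPA, 72.0 CPM in aged control and 96.6 CPM in young muscle. In aged EPA against aged control, all 12 slow fibre genes were lower (median log2 change -0.28), where 44.2% of all genes were higher. Ankrd2 and Csrp3 were lower in that comparison too, at log2 changes of -0.22 and -0.24. The third ankyrin repeat gene of this family, Ankrd23, had 1703 CPM in aged EPA, 1624 CPM in aged control and 1496 CPM in young muscle. Ankrd1 and Ankrd2 were therefore not matched by Ankrd23, which was highest in aged EPA.

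Tcap, Ldb3 and Des were ordered alike, with aged EPA highest and young lowest. Tcap (ENSMUSG00000007877, chromosome 11, 98383811 to 98384953), which encodes telethonin, had 1863 CPM in aged EPA, 1604 CPM in aged control and 1461 CPM in young muscle. Its fold was 1.16 in aged EPA against aged control (log2 count ratio 0.23, interval 0.21 to 0.24), the largest positive one of the 9 genes in that comparison, and 1.10 in aged control against young. Ttn, the gene of titin itself, had 4106 CPM in aged EPA, 4482 CPM in aged control and 3638 CPM in young muscle. The CPM ratio of Tcap over Ttn was 0.454 in aged EPA, 0.358 in aged control and 0.402 in young muscle.

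Des (ENSMUSG00000026208, chromosome 1, 75360329 to 75368579), which encodes desmin, had 4130.1 CPM in aged EPA, 3678 CPM in aged control and 3183 CPM in young muscle. The fold was 1.12 in aged EPA against aged control (log2 count ratio 0.18, interval 0.17 to 0.19), 1.16 between aged control and young and 1.297 between aged EPA and young muscle (log2 count ratio 0.41, interval 0.40 to 0.42). An annotated antisense gene, Gm15179, overlaps exons of Des and had 9.39 CPM in aged EPA, 9.46 CPM in aged control and 10.1 CPM in young muscle. Whether counting used the strand is not given in the sources used here. Ldb3 (ENSMUSG00000021798, chromosome 14, 34526603 to 34588682), which encodes a PDZ and LIM domain protein that binds alpha-actinin, had 2101 CPM in aged EPA, 2017 CPM in aged control and 1841.5 CPM in young muscle. It had the narrowest range of the 9 genes, with folds of 1.04 in aged EPA against aged control (log2 count ratio 0.13, interval 0.11 to 0.14) and 1.10 in aged control against young (log2 count ratio 0.09, interval 0.08 to 0.11). Values per gene do not show which of its 7 transcripts were present.

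**Figure D2:**
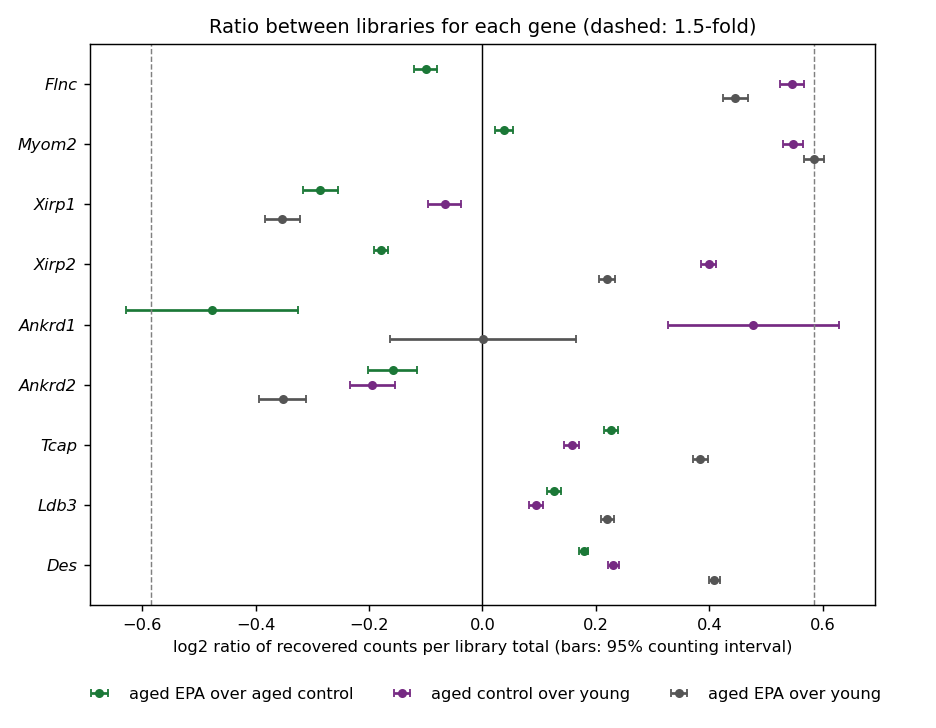
Points show the log2 ratio of recovered counts, each over the total of its library (horizontal axis), for the 9 genes and 3 comparisons, with bars for the 95% counting interval and dashed lines at 1.5-fold. Flnc, Myom2, Xirp2 and Ankrd1 lay between 0.40 and 0.55 in aged control over young, while the aged EPA over aged control ratios ran from -0.48 for Ankrd1 to 0.23 for Tcap.

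The median log2 change of the 9 genes was -0.11 in aged EPA against aged control, 0.21 between aged control and young and 0.21 between aged EPA and young muscle. The medians of all compared genes were -0.03, -0.01 and -0.04 in the same comparisons. Above 0 were 4 of 9 genes in aged EPA against aged control (44.2% of all genes), 7 of 9 in aged control against young (47.5%) and 6 of 9 in aged EPA against young (43.3%). The 10 markers of muscle fibres summed to 142120 CPM in aged EPA, 140899 CPM in aged control and 124351 CPM in young muscle, and their median log2 change was -0.01 for aged EPA over aged control and 0.19 for aged control over young, with 5 of 10 higher in the first and 7 of 10 in the second. In bulk muscle, fewer cells of a type and less RNA per cell cannot be told apart. Desmin and filamins are made by smooth muscle as well. The 12 markers of smooth muscle and pericytes, which include Synm, a gene that muscle fibres also express, summed to 1514 CPM in aged EPA, 1658 CPM in aged control and 1390 CPM in young muscle. Synm turned the direction against young muscle, since the other 11, a choice made after seeing the data, summed to 753 CPM in aged EPA, 847 CPM in aged control and 850.0 CPM in young muscle. All 12 were above 0 in each library. Against aged control, 0 of them were higher in aged EPA, and 8 were higher in aged control than in young muscle. The defining smooth muscle gene Myh11 had 59.5 CPM in aged EPA, 68.2 CPM in aged control and 65.2 CPM in young muscle. The part of fibre or smooth muscle content in the levels of the 9 genes was not tested.

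**Figure D3:**
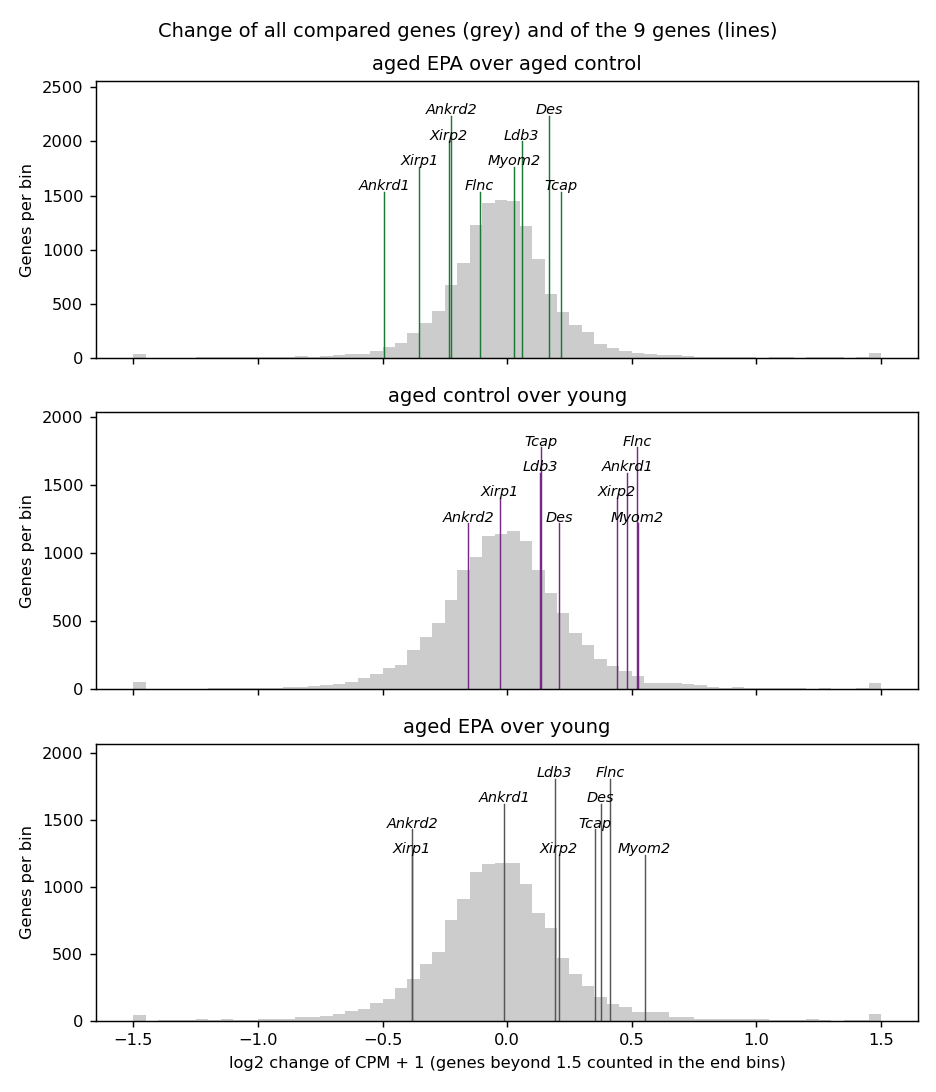
Grey bars count all 12966 compared genes by log2 change of CPM + 1 in bins of equal width, and vertical lines mark the 9 genes, for aged EPA over aged control, aged control over young and aged EPA over young. In aged control over young, Flnc, Myom2, Xirp2 and Ankrd1 stood at 0.44 to 0.52, on the right flank of the distribution, and the other 5 genes stood between -0.16 and 0.21.

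The change also went with transcript length. Across 12965 compared genes with an annotated length, which are not independent replicates, Spearman's rho of change and length was -0.22 in aged EPA against aged control, 0.29 between aged control and young and 0.12 between aged EPA and young muscle. The longest transcripts of the 9 genes run from 948 bases for Tcap to 11979 bases for Xirp2. With the trend of all genes subtracted, aged control against young gave 0.42 for Flnc (9038 bases), 0.48 for Myom2 (5075 bases), 0.31 for Xirp2 and 0.53 for Ankrd1 (2020 bases), and the median of the 9 genes was 0.27. In the same comparison the subtraction took Ankrd2 (1138 bases) from -0.16 to -0.05 and Tcap from 0.13 to 0.27. For aged EPA over aged control, the subtraction left -0.10 for Xirp2, -0.27 for Xirp1, -0.50 for Ankrd1 and 0.19 for Tcap. There the change of Flnc was 0.00 and the median of the 9 genes 0.00. Before the subtraction, the change of Flnc in that comparison was -0.11.

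**Figure D4:**
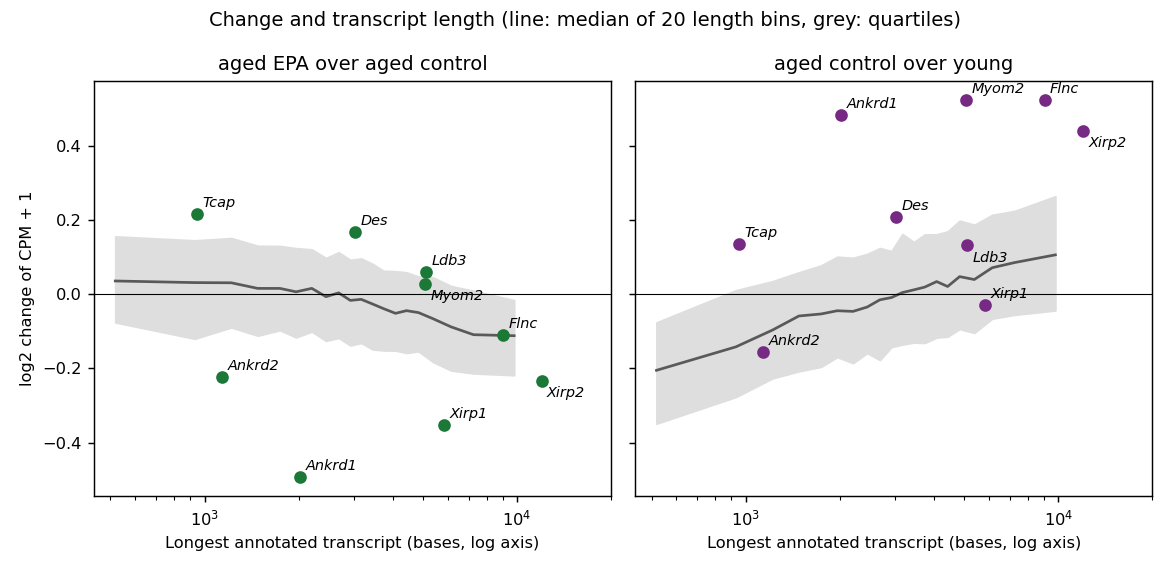
Horizontal axes give the longest annotated transcript in bases on a log scale, vertical axes the log2 change of CPM + 1, for aged EPA over aged control and aged control over young. Grey lines join the medians of 20 equal bins of all genes with quartiles shaded, and Flnc lies close to the line in aged EPA over aged control, at a change of -0.11, and above the line in aged control over young, at a change of 0.52.

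Other genes of the same structures were listed by function, although with earlier results of these data known. Over 111 such genes, 108 were compared, and 6 of these were at least 1.5-fold higher and 3 lower in aged control than in young muscle, with a median log2 change of 0.12, where 2.69% of all genes were higher and 2.55% lower. Between aged EPA and aged control 3 were higher and 3 lower, with a median of -0.06, where 1.69% of all genes were higher and 1.91% lower. Against young muscle, aged EPA had 3 higher and 3 lower, with a median of 0.06, where 2.40% of all genes were higher and 2.96% lower. At the lower bar, 24 of the 108 were higher and 6 lower in aged control against young, beside 9.13% and 10.4% of all genes. In aged EPA against aged control 4 were higher and 6 lower, beside 5.38% and 7.38%, and in aged EPA against young 16 were higher and 6 lower, beside 7.43% and 11.7%.

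The M-band and titin group had a median log2 change of 0.29 in aged control against young, with 12 of 17 genes above 0 (47.5% of all genes). At 1.5-fold in either direction, 5.24% of all genes passed in that comparison and 3.60% between the aged libraries. Igfn1 was listed in this group although it encodes a Z-disc protein, with immunoglobulin and fibronectin domains. It had 16.6 CPM in aged EPA, 17.6 CPM in aged control and 6.81 CPM in young muscle. Igfn1 was the 1 gene of the group past 1.5-fold, at a log2 change of 1.255 in aged control against young. Between the aged libraries the group had a median of -0.04 and no member past 1.5-fold. The largest differences there were those of Myom3, at a log2 change of -0.29, and of Trim54, a ubiquitin ligase of the sarcomere, with 343 CPM in aged EPA and 297 CPM in aged control.

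Among 31 further Z-disc genes, Igfn1 not included, the median log2 change was 0.12 in aged control against young, with 23 above 0 (47.5% of all genes). It was -0.10 in aged EPA against aged control, with 10 above 0 (44.2% of all genes). Pdlim5, which encodes a PDZ and LIM protein related to Ldb3, was the 1 gene past 1.5-fold in each. It had 429 CPM in aged EPA, 226 CPM in aged control and 479.7 CPM in young muscle, so that aged control alone was low. Its relative Pdlim3 had 513 CPM in aged EPA, 496 CPM in aged control and 383 CPM in young muscle. The alpha-actinins, to which these proteins bind, differed little: Actn3, the form of fast fibres, had 7104 CPM in aged EPA, 6670.0 CPM in aged control and 6150.4 CPM in young muscle, and Actn2 had 842, 926 and 864 CPM. Myoz3, a myozenin gene, had 34.9 CPM in aged EPA, 41.8 CPM in aged control and 27.7 CPM in young muscle. Myoz1, the form of fast fibres, had 1693 CPM in aged EPA, 1517 CPM in aged control and 1630.2 CPM in young muscle, while Myoz2, the form of slow fibres and heart, had 93.4, 102.6 and 105.8 CPM. Fhl1, a LIM protein gene, had 586 CPM in aged EPA, 726 CPM in aged control and 664 CPM in young muscle.

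Costamere and intermediate filament genes had a median of 0.18 in aged control against young over 25 compared genes. Of these, 2 were at least 1.5-fold higher and 1 lower, beside 2.69% and 2.55% of all genes. Synm, the partner of desmin in muscle intermediate filaments, had 761 CPM in aged EPA, 812 CPM in aged control and 539.9 CPM in young muscle and was one of the higher genes. The other was the integrin gene Itgb1, with 125 CPM in aged EPA, 191 CPM in aged control and 116 CPM in young muscle. Ank1, which encodes an ankyrin that links membranes to the cytoskeleton, was the lower gene, with 122 CPM in aged EPA, 124 CPM in aged control and 304 CPM in young muscle. Between the aged libraries, Dag1, the dystroglycan gene, was lower in aged EPA, with 148 CPM against 299 CPM in aged control (302 CPM in young). Lims1, a gene of the integrin complex, was higher in aged EPA, with 48.8 CPM against 29.8 CPM in aged control (30.3 CPM in young). The group of filamin and Xin partners had medians of -0.06 in aged EPA against aged control and 0.03 in aged control against young over 10 genes. Its largest differences were those of Enah, an actin regulator, with 30.6 CPM in aged EPA, 12.2 CPM in aged control and 35.0 CPM in young muscle, and of Nebl with 1.16, 2.03 and 0.732 CPM.

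The stretch and stress response group had a median of -0.02 in aged control against young over 27 compared genes, close to that of all genes. Of the 27, 2 were at least 1.5-fold higher, beside 2.69% of all genes. These were Ccn2, with 50.6 CPM in aged EPA, 71.7 CPM in aged control and 39.2 CPM in young muscle, and Ccn1, with 59.7, 64.2 and 36.6 CPM. Both are targets of the YAP and TEAD factors and of serum response factor. The median for aged EPA over aged control was -0.07, with 1 gene past 1.5-fold, beside 3.60% of all genes. This was the serum response factor coactivator Mrtfb, at 23.3 CPM in aged EPA, 39.9 CPM in aged control and 27.9 CPM in young muscle. Bag3, a chaperone partner that removes damaged filamin C, had 248 CPM in aged EPA, 259 CPM in aged control and 271 CPM in young muscle. Its log2 changes against young muscle were -0.06 in aged control and -0.13 in aged EPA, beside medians of -0.01 and -0.04 over all genes. The log2 count ratio was -0.05 in each. A link with Flnc, which was higher in both aged libraries, was not tested.

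**Figure D5:**
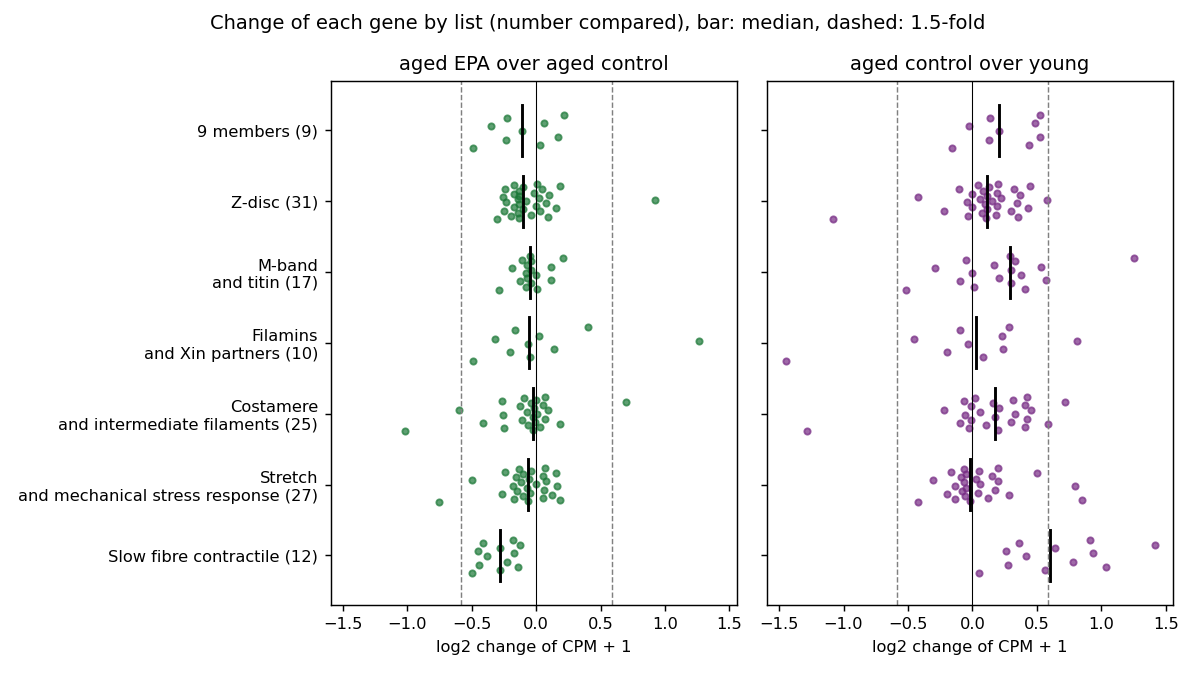
Each point is the log2 change of CPM + 1 of 1 compared gene, by list, for aged EPA over aged control and aged control over young, with black bars at the list medians and dashed lines at 1.5-fold. The slow fibre genes lay on opposite sides of 0, with medians of -0.28 and 0.60, while the median of the 9 genes was -0.11 and 0.21.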

How the data were processed

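Each group was 1 library of pooled total RNA. Per the submitters' processing notes the aligner HISAT2 2.1.0, the assembler StringTie 1.3.4d, and the language R 3.5.0 were used, with neither settings nor order given. The notes give the build as GRCm38. The deposited values are CPM per gene, scaled by the authors. They were not made with 1 divisor per library: all values above 0 in each table became whole counts (within 1e-06) with 1 of 5 divisors between 56034275 and 57687235, which differed from gene to gene. Of these, 3 lay 63718 to 64453 above the recovered total of 1 library each, and 2 corresponded to no library analysed here. Recovered totals were 55969822 counts for aged EPA, 57622886 for aged control and 57386394 for young, and deposited CPM differed from CPM over these totals by between -2.98% and 2.84%. For this reason log2 count ratios, taken over the recovered total of each library with nothing added, stand beside the log2 changes of CPM + 1.

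Values of 33 rows that repeat a gene symbol were added to the other row of that symbol. The comparison was limited to genes whose mean reached 1 CPM. With 1 library per group, no model was fitted. The calculation of changes, intervals and recovered counts was tested on simulated data. Annotation and transcript lengths came from GENCODE M21 (GRCm38), which held 42170 of 42258 identifiers, and the length trend was a lowess curve (fraction 0.3). The 9 genes, the lists and the thresholds were chosen with earlier results of these data known. Named genes were the 9, their listed paralogues and partners, the 2 genes per list with the largest change between aged EPA and aged control and between aged control and young, and the 5 closest profiles to the gene with the widest range. Some of the listed paralogues and partners are not reported here. Alternatives were pseudocounts of 0.1 and 5, no filter and a mean of at least 5 CPM, median-of-ratios and unweighted trimmed-mean (TMM) scaling, rescaling without mitochondrial and the 20 most abundant genes, recovered counts over their own total, the length trend subtracted, keeping only the highest of rows with the same symbol, and bars of 25% higher or 20% lower and of 2-fold. Python 3.11.15 with pandas 2.3.3, SciPy 1.17.1, statsmodels 0.14.6 and matplotlib 3.10.9 was used.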

Additional observations from a re-analysis of the deposited data

How the results depend on the processing

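Deposited CPM at the 1.5-fold bar gave 0 of the 9 genes in each comparison. Median-of-ratios scaling and TMM scaling each gave 1 in aged EPA against young, which was Myom2. At 25% higher or 20% lower the number was 2 between aged EPA and aged control, 4 between aged control and young and 6 between aged EPA and young. Of the 108 other genes of these structures, 6, 9 and 6 passed 1.5-fold in these comparisons, 10, 30 and 22 passed 25% higher or 20% lower (12.8%, 19.6% and 19.1% of all compared genes), and 2, 4 and 3 passed 2-fold (1.33%, 1.74% and 1.604%). Over all compared genes, 467, 679 and 695 passed 1.5-fold with 1 added to the CPM, against 767, 1102 and 1089 with 0.1 and 233, 313 and 303 with 5. Of 270 recalculated log2 changes of the 9 genes, 75 moved by more than the counting interval reaches to either side on average. The largest move was 0.14, with the length trend subtracted. The sign changed in 5, of which 4 were Ankrd1 in aged EPA against young (0.02 with median-of-ratios scaling, 0.03 with TMM scaling, 0.00 on recovered counts, 0.02 with the length trend subtracted) and 1 was Flnc in aged EPA against aged control (0.00 with the length trend subtracted). The filter on low values and the handling of repeated symbols moved no value of the 9 genes. At the bar of 25% higher or 20% lower, Xirp1 in aged EPA against aged control fell short on recovered counts (-0.29) and with the length trend subtracted (-0.27). With that subtraction, Xirp2 in aged control against young (0.31) and Ankrd2 in aged EPA against young (-0.30) also fell short. Depth limits Ankrd1 most, with 603 to 864 counts per library. No paired analysis was possible because each group is 1 library.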

Other observations

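Markers of other cells in the muscle differed between the libraries by more than the 9 genes did in some cases. Red cell markers summed to 565 CPM in aged EPA, 561 CPM in aged control and 1508 CPM in young muscle, with 0 of 5 higher in aged control than in young. Endothelial markers summed to 338 CPM in aged EPA, 352 CPM in aged control and 441 CPM in young muscle, with 1 of 8 higher in aged control. Adipocyte markers summed to 142 CPM in aged EPA, 107 CPM in aged control and 167 CPM in young muscle, and all 6 were higher in aged EPA than in aged control. Tendon markers, of which 7 were compared, summed to 351 CPM in aged EPA, 354 CPM in aged control and 308 CPM in young muscle. Fibro-adipogenic markers summed to 2904 CPM in aged EPA, 2844 CPM in aged control and 2968 CPM in young muscle, and macrophage markers to 236, 231 and 228 CPM. Their part in the levels of the 9 genes was not tested.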
